A study of Mus musculus with 96 samples.

Results

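Described here are 9 microglial identity genes other than the purinergic receptors: Tmem119, Siglech, Cx3cr1, Csf1r, Fcrls, Selplg, Olfml3, Slc2a5 and Sall1. They were taken by name and matched to their Ensembl mouse gene IDs, 9 of the 54532 gene models in the count tables. Microglia had been sorted from wild-type mice with a gate that kept CD11b+ Fcrls+ cells and left out Ly6C+ ones, and 1000 cells were lysed for each Smart-seq2 library. Animals were young (3 to 5 months) or old (20 to 22 months) and had abdominal surgery or were controls, and tissue was taken at 6 h or 48 h. Each of the 48 animals gave 1 library from the hemisphere and 1 from the hippocampus, which makes 96 libraries in 16 groups. Every young group had 4 animals, old controls had 8 at each time, and old animals after surgery numbered 7 at 6 h and 9 at 48 h. All animals carried the wild-type genotype, and what the controls underwent is not stated. The Fcrls antibody of the sort recognises the product of 1 of the 9 genes, so every library came from cells already chosen for that protein.

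Microglia are the resident macrophages of the brain. Their identity is held by a set of genes that peripheral macrophages express weakly or not at all, under transcription factors such as PU.1 (Spi1), Irf8, Mef2 factors and Sall1, and with TGF-beta and CSF1 receptor signalling from the surrounding tissue. Many of these genes are known to decline in inflammation, in culture and in disease, which is why they are read as a gauge of the homeostatic state. Of the 9, Csf1r is the receptor tyrosine kinase on which microglial survival depends, and Cx3cr1 is the receptor for the neuronal chemokine fractalkine. Siglech is a member of the family of sialic acid-binding lectins and signals through the adaptor Tyrobp. Fcrls is an Fc receptor-like molecule with a scavenger receptor domain, and Selplg is the ligand of P-selectin. Tmem119 is a transmembrane protein used as a microglial surface marker, Olfml3 is a secreted olfactomedin-domain protein, Slc2a5 is the fructose transporter GLUT5, and Sall1 is a zinc-finger transcription factor.

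Hippocampal libraries of old controls held more Fcrls than the hemisphere libraries of the same animals. It was the single member past the threshold in any comparison. DESeq2, run as an alternative tool, also called Siglech, Olfml3 and Slc2a5 there. It called 51 genes in all, against 11 with edgeR, among the 11654 that passed the count filter. Stretches from the promoter windows of these 4 genes are shown because they are the genes on which the region result turns. They come from RefSeq promoter windows (GRCm38.p6, the same assembly as mm10), 5′ to 3′ on the gene's strand, cut to the longest stretch outside every annotated exon. The RefSeq start used for Fcrls lies inside the longer gene model of mm10, so its stretch is within the gene body, and the other 3 stretches lie before the gene model. Capitals mark matches to the motifs named below.
Fcrls: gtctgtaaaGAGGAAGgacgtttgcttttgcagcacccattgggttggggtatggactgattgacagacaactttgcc
Olfml3: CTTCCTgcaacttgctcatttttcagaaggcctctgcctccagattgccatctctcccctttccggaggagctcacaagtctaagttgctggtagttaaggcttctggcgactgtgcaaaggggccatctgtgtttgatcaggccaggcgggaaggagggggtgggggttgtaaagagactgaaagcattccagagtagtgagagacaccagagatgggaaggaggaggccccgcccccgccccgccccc
Siglech: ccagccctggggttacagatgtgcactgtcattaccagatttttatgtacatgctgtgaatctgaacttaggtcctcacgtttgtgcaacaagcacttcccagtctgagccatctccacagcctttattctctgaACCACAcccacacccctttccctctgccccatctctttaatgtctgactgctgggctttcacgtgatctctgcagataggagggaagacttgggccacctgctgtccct
Slc2a5: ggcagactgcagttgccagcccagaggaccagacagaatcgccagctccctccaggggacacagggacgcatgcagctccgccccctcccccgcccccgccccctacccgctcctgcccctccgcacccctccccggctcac

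These stretches lie at chr3:87263600-87263677 on the minus strand for Fcrls, chr3:103738002-103738251 on the minus strand for Olfml3, chr7:55767934-55768177 on the plus strand for Siglech and chr4:150119094-150119235 on the plus strand for Slc2a5. Motifs were searched on both strands in the 250 bases before the start, in 8 RefSeq windows of 6 members (Sall1 has 3) and in all 32851 windows of the table. The PU.1 core GAGGAA was in 1 member window, that of Fcrls, where it begins 144 bases before the RefSeq start and overlaps a match to the ETS-family core AGGAAG, and in 23.3% of all windows. AGGAAG itself was in 3 member windows (Fcrls, Olfml3 and 1 of Sall1) and in 29.5% of all windows. The RUNX core TGTGGT was in the windows of Cx3cr1, Fcrls (outside the stretch shown) and Siglech and in 14.0% of all, and the MEF2 pattern in that of Cx3cr1 and in 3.20% of all. In no member window was there the IRF pattern (2.98% of all), the AP-1 pattern TGANTCA (6.75%) or the glucocorticoid receptor pattern (0.387%). These matches describe the letters in 1 short window per start and say nothing of binding.

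In mm10 the gene models lie as follows. Tmem119 (chromosome 5, 113793729 to 113800516) and Selplg (chromosome 5, 113818536 to 113832644) are neighbours on the minus strand, 18019 bases apart, with 1 processed pseudogene between them. Fcrls (chromosome 3, 87250758 to 87263738), Olfml3 (chromosome 3, 103722222 to 103738001), Sall1 (chromosome 8, 89027235 to 89044162) and Cx3cr1 (chromosome 9, 119901616 to 120069879) are also on the minus strand. Siglech (chromosome 7, 55768178 to 55778925), Slc2a5 (chromosome 4, 150119283 to 150144169) and Csf1r (chromosome 18, 61100598 to 61132149) are on the plus strand. For 7 of the 9 no other annotated exon overlaps theirs. The long Cx3cr1 model spans 9 other models, 1 of which shares exon bases with it, and exons of Csf1r overlap those of Hmgxb3 on the other strand, so reads in those stretches could not be assigned without strand.

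Libraries held 1874168 to 3778939 estimated counts (median 2703893), of which a median of 75.4% and at most 81.2% fell on 15 predicted, repeat-like or ribosomal models. Levels are therefore given as CPM, counts per 1000000 counts outside those 15 models, with TMM factors over all 96 libraries. The counts outside them ran from 465922 to 1500332. Low values moved in uneven steps in 6 libraries, all from 6 h animals. In the hippocampus these were replicates 1 and 4 of the young controls and replicates 5 and 6 of the old surgery group. In the hemisphere they were replicate 6 of the old surgery group and replicate 7 of the old controls. Without the animal among the old controls the Fcrls call described below was kept (log2 0.52, adjusted p = 0.0395, edgeR). In bulk libraries, fewer cells that express a gene and less RNA per cell cannot be told apart.

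All 9 genes had counts in 96 of 96 libraries, and together they took 1.11% to 3.26% of the counts outside the 15 models (median 2.02%). Per kilobase of exon, Tmem119 was highest, with a median of 1085 CPM per kb over the 96 libraries. Cx3cr1 (941), Csf1r (909), Selplg (754) and Fcrls (633) followed on the same scale, then Siglech (373), Olfml3 (221), Slc2a5 (150.0) and the transcription factor Sall1 (72.4). Among 21984 protein-coding genes ranked by median CPM per kb, the members stood between place 13 (Tmem119) and place 366 (Sall1). The order at the ends was steady between libraries: Siglech was 6th of the 9 in 96 libraries, Sall1 was 9th in 85 and Olfml3 7th in 89. Tmem119, Cx3cr1, Csf1r and Selplg exchanged places, and Tmem119 was 1st in 68 libraries.

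The smallest member rested on a median of 253.5 counts per library (Sall1, 157 to 458) and the largest on 3430.5 (Csf1r, 1676 to 5970). The SD within a group was, in the median over the 16 groups, 12.1% of the mean for Siglech, 13.1% for Sall1, 14.9% for Selplg and 17.1% for Tmem119. It was 27.0% for Csf1r and 40.7% for Slc2a5. Slc2a5 also had the widest range of group means: the highest, 916 ± 182 CPM (SD, n = 9) in old surgery hippocampus at 48 h, was 3.42 times the lowest, 268 ± 72.4 CPM (SD, n = 7) in old surgery hemisphere at 6 h. That ratio was 1.44 for Siglech, 1.47 for Sall1 and 1.52 for Tmem119, and it was smallest for Selplg. When the 16 group means of a member were put in order, none of the 15 gaps between neighbours exceeded the larger SD of the pair. This held for all 9 genes. Gaps between so many ordered means are narrow by construction, so this does not show whether groups differ. Group means at 48 h were above those at 6 h in 8 of 8 sets of age, treatment and region for Cx3cr1, Fcrls, Olfml3, Csf1r and Slc2a5, and in 6 to 7 of 8 for the others. The median ratio was 1.62 for Olfml3, 1.41 for Slc2a5 and 1.33 for Cx3cr1. The 2 times were separate animals counted in separate tables, controls included, and this difference was not tested.

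**Figure D1:**
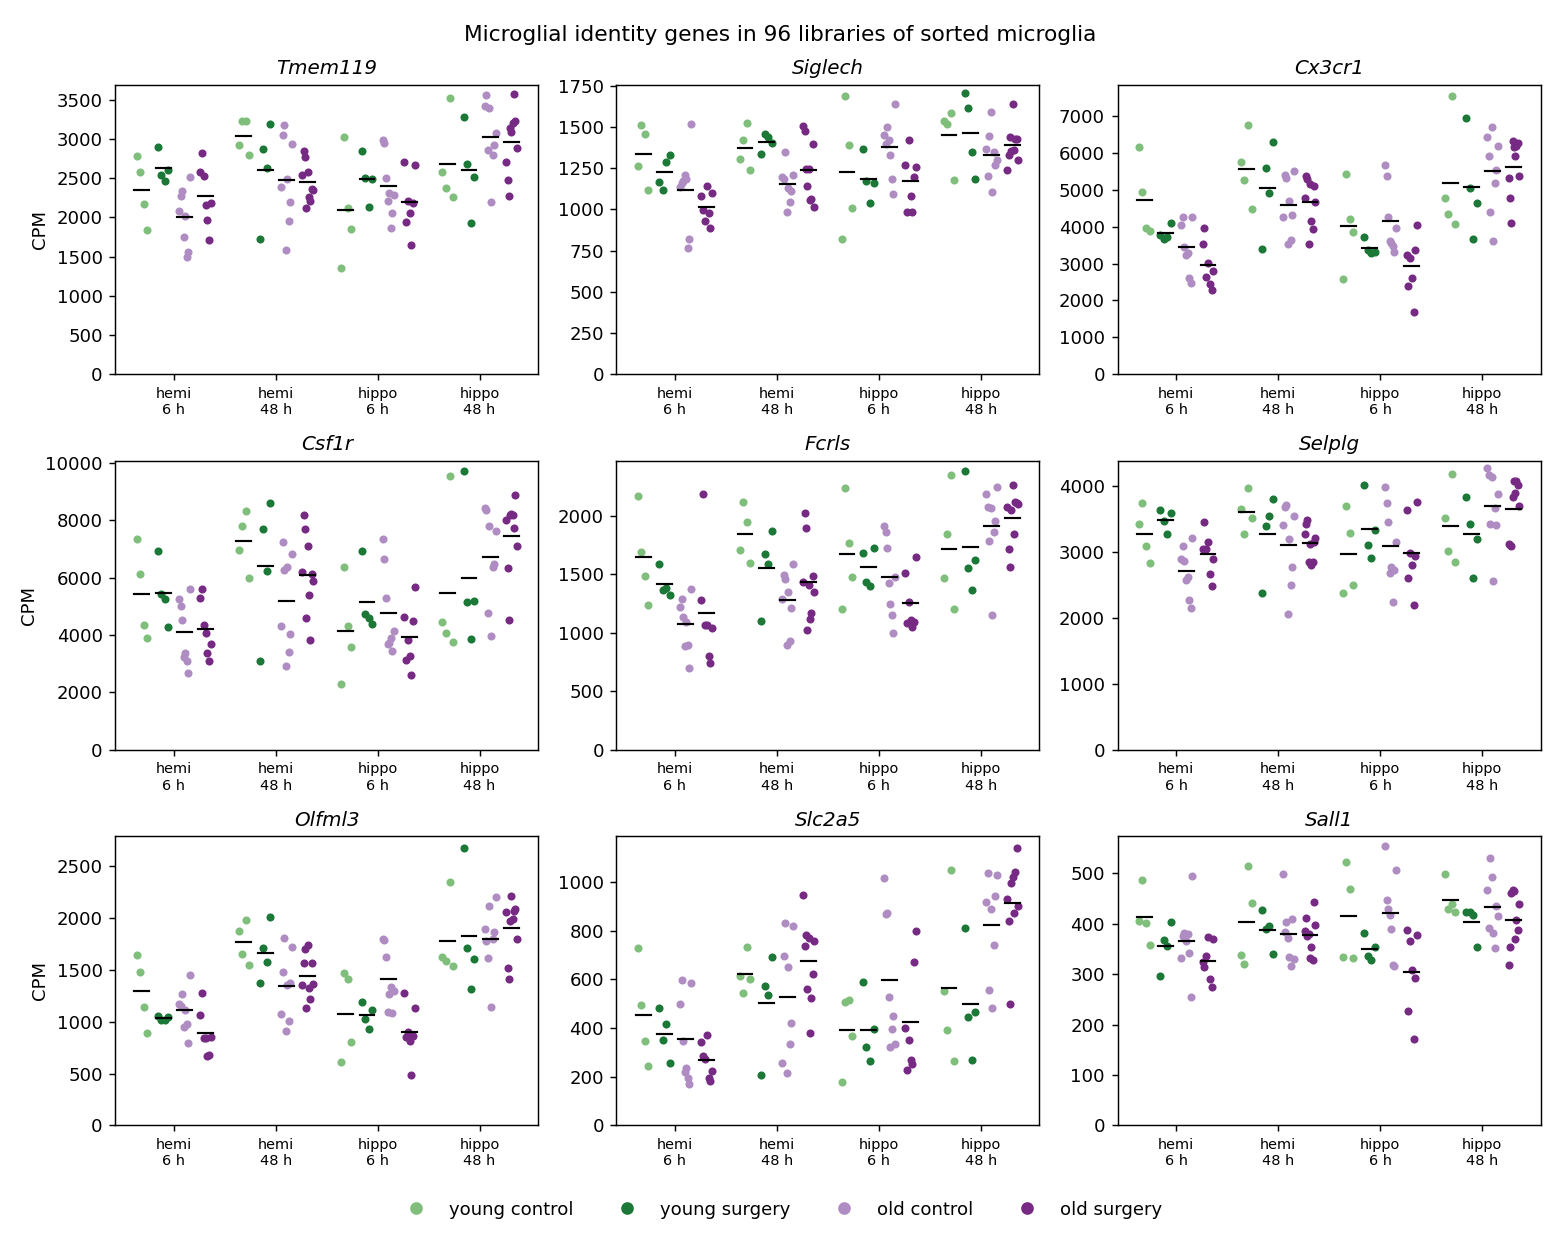
Level of each gene (CPM, linear axis from 0) in every library, by region and time, with young and old controls and surgery animals in colour and the group mean as a black bar. The groups of each gene overlap widely, Slc2a5 and Csf1r spread most, and means at 48 h lie mostly above those at 6 h.

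The first question was whether levels in the hippocampus differ from those in the hemisphere of the same animal. In old controls Fcrls was 700.2, 1219 and 1590.4 CPM (lowest, median and highest of 16) in the hemisphere and 996, 1825 and 2247 CPM in the hippocampus. The ranges overlap, but within animals the hippocampus was higher in 15 of 16, and the exception was the old control 48 h replicate 5, with 1350.3 CPM in the hemisphere and 1154 in the hippocampus. The means were 1177 ± 257 and 1696 ± 401 CPM (SD, n = 16). The log2 difference was 0.51 ± 0.09 (SE; adjusted p = 0.0204, edgeR's quasi-likelihood test with the animal as a block and Benjamini-Hochberg adjustment over 11654 genes). In that comparison 0.0944% of genes were called, 11 in all, and Fcrls was 5th of them by p. The call was lost in 6 of the 16 fits that left out 1 animal (0.47 to 0.56, adjusted p 0.00558 to 0.0605), in those without old control 6 h replicates 1 and 3 and 48 h replicates 1, 2, 7 and 8. It was also lost within the 6 h animals (0.43, adjusted p = 0.587) and within the 48 h animals (0.58, adjusted p = 0.610), 8 animals each.

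The other 8 genes were also higher on average in the hippocampus of old controls, and none of them passed edgeR's threshold. Their log2 differences ran from 0.19 (Sall1) to 0.76 (Slc2a5), the median of the 9 was 0.28, and that of all genes tested was -0.01. All 9 had an unadjusted p below 0.05, as did 1138 of the 11654 genes. After group means were taken off, 1 axis held 76.3% of the standardised variation of the 9 genes. Counts of members by sign or unadjusted p, here and below, are therefore not counts of separate observations. Slc2a5 went from 442 ± 228 to 712 ± 264 CPM (SD, n = 16), higher in 13 of 16 animals, with a log2 difference of 0.76 ± 0.18 (SE; adjusted p = 0.178, edgeR; 0.00597, DESeq2). The fructose transporter thus had the largest difference and the widest error of the set. Olfml3 went from 1226 ± 290.3 to 1606 ± 359 CPM (SD, n = 16), higher in 13 of 16 (0.38 ± 0.10 SE; adjusted p = 0.198, edgeR; 0.0238, DESeq2). Siglech went from 1137 ± 179 to 1353 ± 158 CPM (SD, n = 16), higher in 15 of 16 (0.25 ± 0.07 SE; adjusted p = 0.227, edgeR; 0.0166, DESeq2). Both tools gave the same size for these 3 genes and differed in which side of the threshold they fell. Sall1 was higher in 14 of 16 animals by 0.19 ± 0.07 (SE; adjusted p = 0.453, edgeR). Tmem119, Cx3cr1 and Csf1r were each higher in 13 of 16 and Selplg in 12 of 16, by 0.21 to 0.30.

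**Figure D2:**
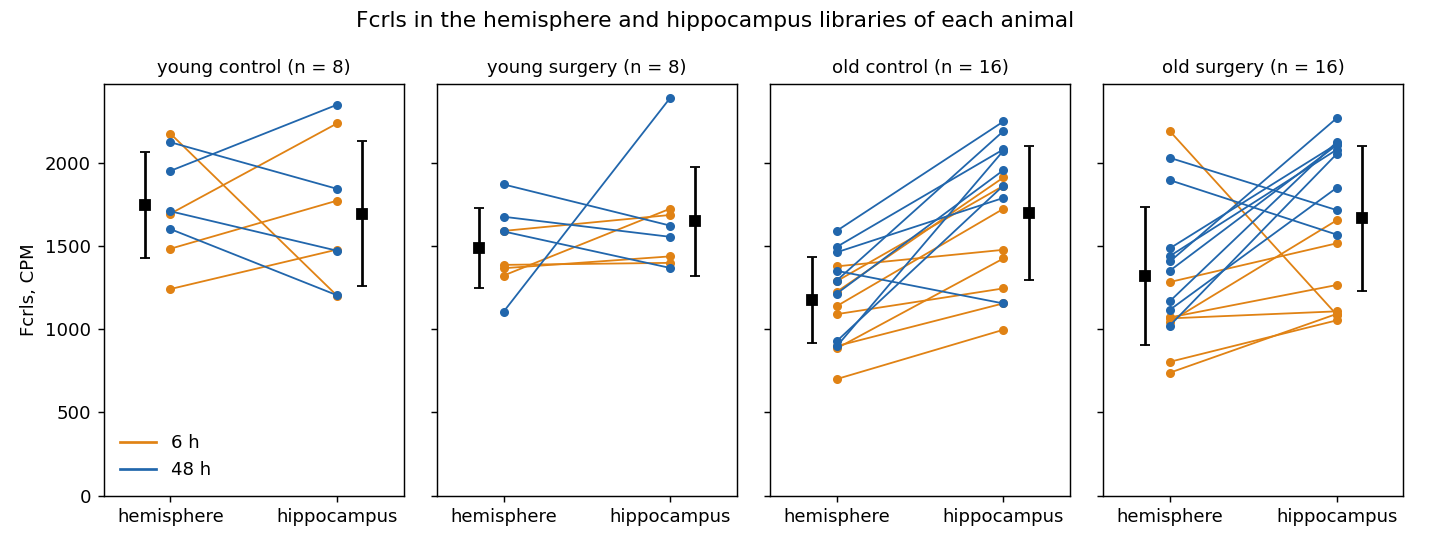
Fcrls level (CPM, linear axis from 0) in the hemisphere and hippocampus libraries of each animal, joined by a line (orange 6 h, blue 48 h), with mean and SD as black squares and bars. Lines slope upward in 15 of 16 old controls and 13 of 16 old animals after surgery, and in 4 of 8 young controls.

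In old animals after surgery Fcrls was 738, 1226 and 2189 CPM (lowest, median and highest of 16) in the hemisphere and 1053, 1684 and 2267 CPM in the hippocampus, higher in 13 of 16 animals. The log2 difference was 0.35 ± 0.12 (SE; adjusted p = 0.631, edgeR; 0.00851% of genes called, 1 gene). Slc2a5 had 0.49 ± 0.16 (SE; adjusted p = 0.631, edgeR), higher in 12 of 16, and Sall1 had -0.00 ± 0.09 (SE). None of the 9 was called there by edgeR or DESeq2, with 4 at an unadjusted p below 0.05, as were 607 of the 11745 genes tested. Of the 8 young control animals, 2 had a hippocampus library with uneven low values, and without those animals 4 of 9 members were positive rather than 1 (median -0.06 rather than -0.15). In young controls the hemisphere and hippocampus levels of Fcrls were 1747 ± 320.0 and 1694 ± 436 CPM (SD, n = 8), higher in 4 of 8, with a log2 difference of -0.05 (95% interval -0.36 to 0.25). In young animals after surgery they were 1487 ± 239 and 1647 ± 328 CPM (SD, n = 8; 0.14, -0.17 to 0.45). In both young sets 0% of genes were called, and 8 of the 9 members were lower in the hippocampus of young controls. Csf1r was the farthest there, at 6355 ± 1585 in the hemisphere and 4795 ± 2238 CPM in the hippocampus (SD, n = 8; log2 -0.47, adjusted p = 0.753, edgeR).

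A call in old and not in young controls does not show that the region difference depends on age, so the difference of the differences was tested. For Fcrls it was 0.59 ± 0.17 (SE; unadjusted p = 0.00154, adjusted p = 0.323, edgeR). It was 0.79 for Csf1r and 1.03 for Slc2a5, and positive for 9 of 9 members with a median of 0.50 against -0.00 for all genes. Of 14595 genes tested 0% were called, with 1479 at an unadjusted p below 0.05, among them 8 of the 9 members. Without the animals that had an uneven library the Fcrls value was 0.53 (adjusted p = 0.766, edgeR) and the median of the 9 was 0.37. Between ages after surgery (8 of 9 positive, median 0.20) and between surgery and control in old animals (0 of 9 positive, median -0.16) 0% of genes were called as well, and no member had an unadjusted p below 0.05. The age and treatment dependence of the region difference thus did not pass the test.

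**Figure D3:**
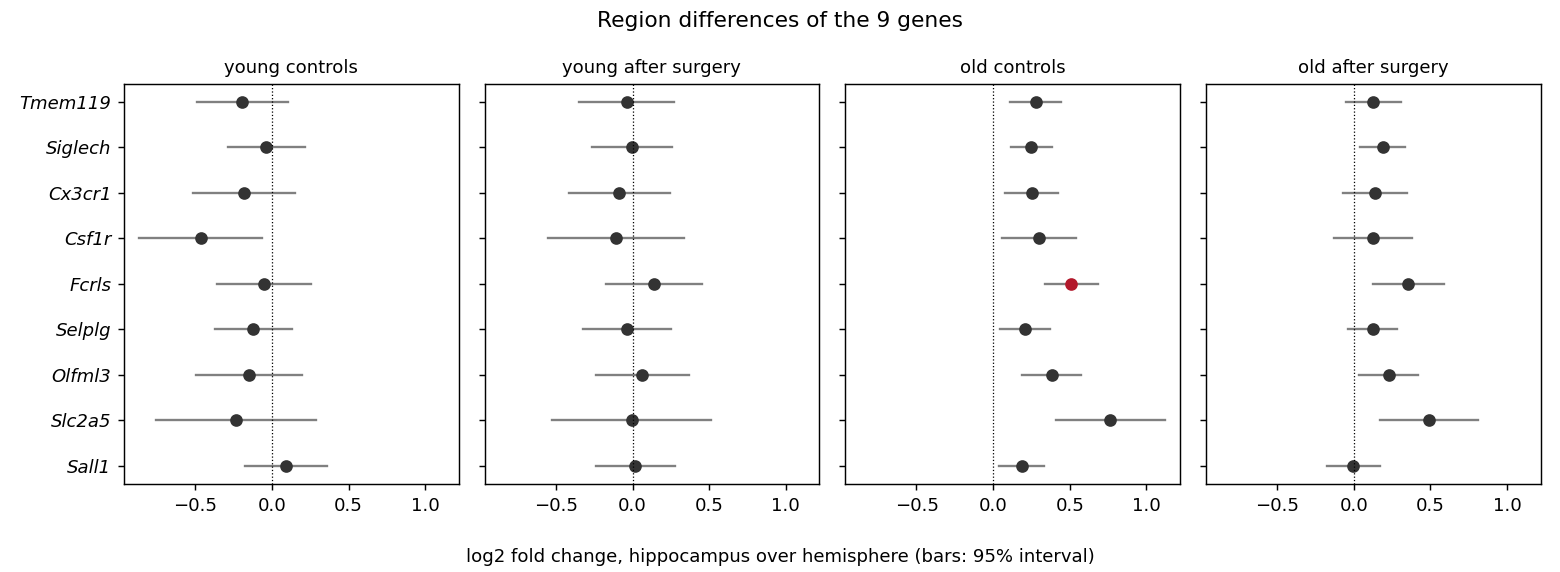
Log2 fold change of each gene, hippocampus over hemisphere of the same animals, with normal 95% intervals, in the 4 sets of animals. Fcrls in old controls (red) is the single called value, and all 9 points lie above 0 in that set against 1 of 9 in young controls. Without the young controls that had an uneven library, 4 of 9 were above 0 (not drawn).

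The region difference of Fcrls was set beside the mean of the other 8 within each animal, although Slc2a5 alone had a larger one in old animals. In old controls the Fcrls log2 difference within animals was 0.52 ± 0.34 (SD, n = 16) and the mean of the other 8 genes was 0.34 ± 0.35, so Fcrls exceeded them by 0.18 ± 0.15, in 14 of 16 animals. The excess was 0.17 ± 0.27 in old animals after surgery (13 of 16), 0.11 ± 0.16 in young controls (6 of 8) and 0.16 ± 0.14 in young animals after surgery (7 of 8). The excess ranged from 0.11 to 0.18 over the 4 sets, and it is given as a description without a test.

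Other properties of the old control libraries moved with region to different extents. The share of counts on the 15 largest models was higher in the hippocampus in 11 of 16 animals (median 75.1% in the hemisphere, 76.5% in the hippocampus), and the counts outside them in 9 of 16. In young controls the share was higher in the hippocampus in 3 of 8 animals, and the counts outside those models in 7 of 8. Those counts had medians of 658706 in the hemisphere and 761634 in the hippocampus. The part of these properties in the age contrast of the region difference was not tested. Within groups, the common level of the 9 genes correlated with the share (r = 0.78 over 96 libraries) and with log2 counts outside the 15 models (-0.60), as a description. With those log2 counts (depth) as a covariate the Fcrls difference was 0.51 (adjusted p = 0.0220, edgeR), and Fcrls was again the single member called. The share of the 15 models was not fitted as a covariate. Summed levels of 33 other microglial identity genes, such as P2ry12 and C1qa, were higher in the hippocampus in 12 of 16 animals. In the fit 31 of those 33 were positive (median 0.19) and 0 were called. The oligodendrocyte markers were higher in the hippocampus in 3 of 16 animals, at a median of 94.1 and 71.5 CPM summed over 5 genes. Border-associated macrophage markers (medians 614 and 681 CPM over 10 genes, nearly all of it Stab1) and endothelial markers (39.7 and 53.5 CPM over 5 genes) were higher in 11 of 16. Over the 96 libraries the largest endothelial marker was Pecam1 (median 26.4 CPM), and Cldn5 and Cdh5 had a median of 0. The part of other cells in the region difference was not tested.

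The study's main question was what abdominal surgery does at each age. None of the 9 genes was called in the 8 comparisons of surgery with control, by edgeR or by DESeq2, with 4 of 72 member tests at an unadjusted p below 0.05. Among all genes, the share below it ran from 440 of 12250 (young hemisphere, 48 h) to 1134 of 13703 (old hippocampus, 6 h). The share of genes called in hemisphere at 6 h was 0.0627% of 12760 genes in young and 0.337% in old animals. In hippocampus at 6 h it was 0.0365% of 13703 in young and 0.0876% in old animals. At 48 h it was 0% in both regions and both ages. With so few genes called anywhere, a count of 0 of 9 sets the members apart from nothing.

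The lowest values were in the hippocampus of old animals 6 h after surgery, where 0 of 9 members were positive, the median log2 difference was -0.27 and that of all genes was 0.02. The secreted protein Olfml3 was 1087, 1317 and 1798 CPM (lowest, median and highest of 8) in controls and 482, 859 and 1278 CPM of 7 after surgery. The log2 difference was -0.64 ± 0.20 (SE; adjusted p = 0.321, edgeR), and the groups overlapped. Cx3cr1 was 4157 ± 906 CPM (SD, n = 8) in controls and 2926 ± 766 CPM (SD, n = 7) after surgery (-0.50, adjusted p = 0.421, edgeR). Sall1 was 316, 423 and 554 CPM (lowest, median and highest of 8) in controls and 172, 307 and 388 CPM of 7 after surgery (-0.47, adjusted p = 0.438, edgeR). Its lowest library was 1 of the 2 in that group with uneven low values. Those 3 genes had an unadjusted p below 0.05, as did 1134 of the 13703 genes tested. The other members lay between -0.04 (Selplg) and -0.49 (Slc2a5). Without the 2 uneven libraries 1 of 9 was positive and the median was -0.22. Summed astrocyte and border-associated macrophage markers differed between the same groups, and each sum leans on few genes. Sums of the other cell lists are not given here for these groups. Over the 96 libraries Slc1a3 (median 146 CPM) was most of the astrocyte sum, with Gfap at 0. Stab1 (652 CPM) was nearly all of the border-associated macrophage sum, with Mrc1 at 6.35 CPM and Lyve1 at 0. The 6 astrocyte markers summed to 123, 186 and 326 CPM (lowest, median and highest) in controls and 294, 313 and 604 CPM after surgery, and the 10 border-associated macrophage markers to 488, 737 and 1096 and to 891, 1129 and 1625 CPM. Both medians were higher after surgery in each of the other age and region sets at 6 h too, and their part in the member values was not tested. In the young hippocampus at 6 h 5 of 9 members were positive (median 0.01), and 0 of 9 without the 2 uneven control libraries (-0.37).

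At the same age, region and time Tmem119, at 2396 ± 396 CPM (SD, n = 8) in controls and 2199 ± 379.6 CPM (SD, n = 7) after surgery, had a log2 difference of -0.12 (95% interval -0.43 to 0.19). In the hemisphere of old animals at 6 h the set divided: Olfml3 (-0.33), Slc2a5 (-0.42), Cx3cr1 (-0.24), Sall1 (-0.18) and Siglech (-0.15) were negative, while Tmem119 (0.17), Selplg (0.12), Fcrls (0.11) and Csf1r (0.03) were positive. In the hemisphere of young animals at 6 h the signs were the same for 8 members, among them Olfml3 (-0.31), Cx3cr1 (-0.30), Tmem119 (0.18) and Selplg (0.10), and Fcrls had -0.21 there. Tmem119 was 2346 ± 423 CPM in young controls, from libraries of 2789, 2582, 2171 and 1843 CPM, and 2629 ± 189.7 CPM after surgery, from 2901, 2538, 2470.4 and 2607 CPM (SD, n = 4 each). The 2 groups overlapped, and none of these values was called.

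At 48 h the differences after surgery lay between -0.32 and 0.37, both of them Slc2a5 in the hemisphere. In the old hippocampus they ran from -0.09 (Sall1) to 0.15 (Csf1r), in the young hippocampus from -0.17 (Slc2a5) to 0.15 (Csf1r), in the old hemisphere from -0.00 (Tmem119) to 0.37 (Slc2a5) and in the young hemisphere from -0.32 (Slc2a5) to 0.03 (Siglech). Sall1 in the young hippocampus was the single case in which control and surgery libraries did not overlap: 499, 429, 439 and 423 CPM in controls and 422, 422, 417 and 353 CPM after surgery. The log2 difference was -0.12 (adjusted p = 0.963, edgeR; 0% of genes called). Between these groups 1.92% of all genes did not overlap. The half-width of the 95% intervals over the 8 surgery comparisons was 0.19 to 0.39 for Siglech and 0.43 to 0.83 for Slc2a5, which bounds what these groups could show.

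The surgery effect was also compared between ages and between times. Between ages 0 of 36 member values were called by either tool, with 0% of genes called in each of the 4 region and time sets and no member at an unadjusted p below 0.05. In the hippocampus at 6 h 0 of 9 members were positive (old minus young; median -0.28, Olfml3 -0.64, adjusted p = 0.551, edgeR), and 5 of 9 without the uneven libraries (median 0.05). Between times 0 of 36 were called by either tool, with 4 at an unadjusted p below 0.05, 2 in the old hemisphere and 2 in the old hippocampus. In those 2 sets 1045 of 14144 and 1009 of 14510 genes were below it. In the old hippocampus 9 of 9 members were positive (48 h minus 6 h; median 0.39, Olfml3 0.73, adjusted p = 0.457, edgeR), beside 0% of genes called, and 8 of 9 without the uneven libraries (0.27). In the young hippocampus 5 of 9 were positive, and 9 of 9 without them. The background was 0% in the young hippocampus, 0.00707% in the young hemisphere and 0.17% in the old hemisphere. These contrasts share the control libraries of the comparisons above and are not separate evidence.

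**Figure D4:**
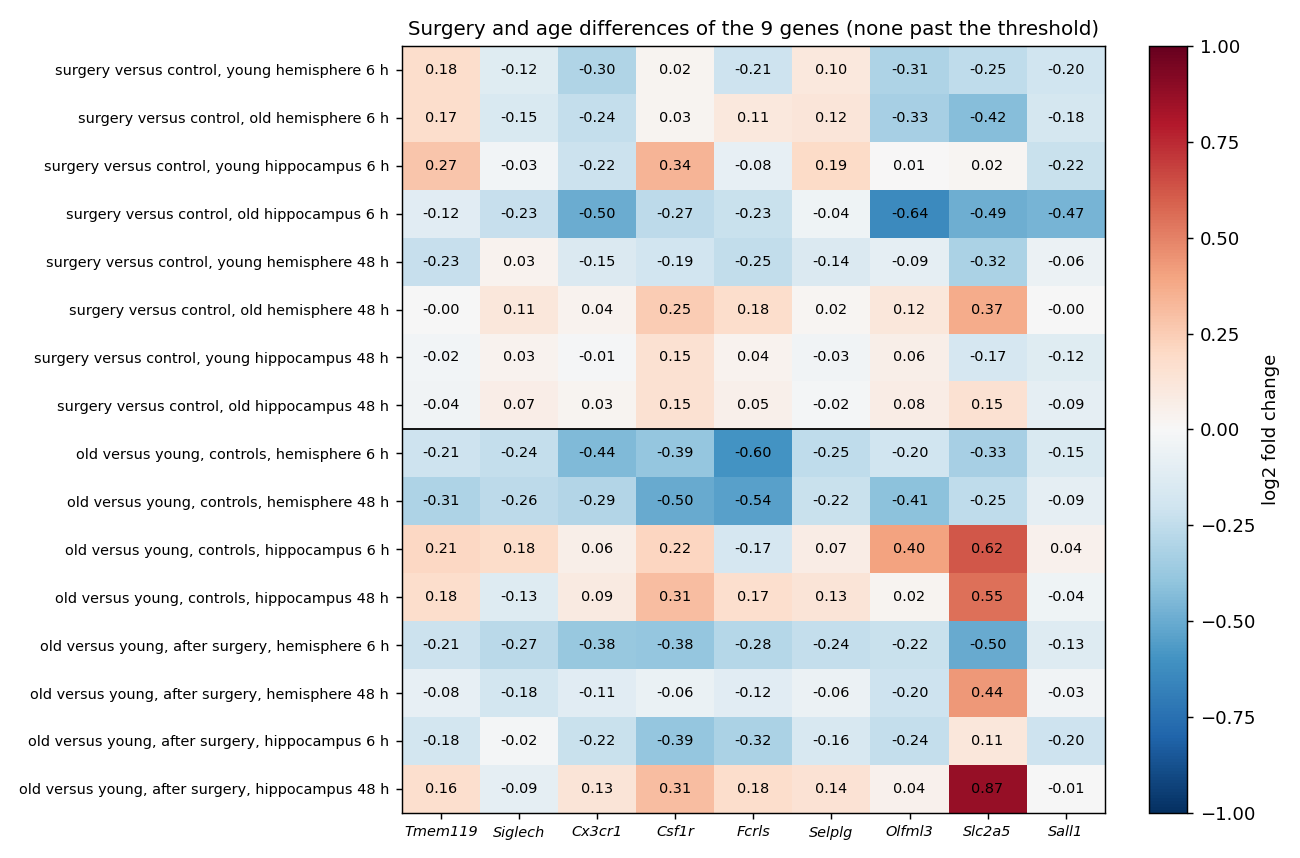
Log2 fold changes of the 9 genes in the 8 comparisons of surgery with control (top) and the 8 of old with young (bottom), red for higher and blue for lower. No value passed the threshold, with the row of old hippocampus at 6 h lowest among the surgery comparisons and the old against young control hemisphere rows negative for all 9.

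Old and young animals were compared within each treatment. None of the 9 genes was called in these 8 comparisons by edgeR or DESeq2, with 8 of 72 member tests at an unadjusted p below 0.05. Among all genes, the share below it ran from 760 of 12760 (after surgery, hemisphere, 6 h) to 1352 of 11985 (after surgery, hippocampus, 48 h). In control hemisphere 9 of 9 members were lower in old animals at both times. At 6 h the median log2 difference was -0.25, against 0.03 for all genes (0.0784% called), and at 48 h it was -0.29, against 0.02 (0.0898% called). Fcrls was the farthest at both. At 48 h it was 1708, 2123, 1951 and 1601 CPM in young controls, and 897, 1321 and 1590.4 CPM (lowest, median and highest of 8) in old controls. The ranges did not overlap, as for 0.678% of all genes there, and the log2 difference was -0.54 ± 0.18 (SE; adjusted p = 0.471, edgeR). At 6 h it was 2174, 1693, 1483 and 1241 CPM in young controls and 700.2, 1114 and 1377 CPM in old ones, with overlap (-0.60, adjusted p = 0.573, edgeR).

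In control hippocampus 8 of 9 members were positive at 6 h (median 0.18, 0.0584% of genes called) and 7 of 9 at 48 h (0.13, 0.0834% called). At 6 h, 2 of the 4 young libraries were uneven, and without them 1 of 9 was positive (median -0.15), so the direction there rested on those 2 libraries. Fcrls was -0.17 and 0.17 there, and Slc2a5 was 0.62 (adjusted p = 0.676, edgeR) and 0.55 (adjusted p = 0.652, edgeR). After surgery the hemisphere at 6 h had 0 of 9 positive (median -0.27, 0.00784% of genes called) and at 48 h 1 of 9 (-0.08, 0.114% called). The hippocampus had 1 of 9 positive at 6 h (-0.20, 0% called) and 7 of 9 at 48 h (0.14, 0.0834% called). Slc2a5 in the hippocampus at 48 h after surgery had the largest age difference of any member. It was between 269 and 809.9 CPM, with a median of 455, in 4 young animals and 499, 932 and 1139.7 CPM (lowest, median and highest of 9) in old ones, a log2 difference of 0.87 (adjusted p = 0.300, edgeR). Over surgery and age together, 2 of 144 pairs of groups did not overlap, the Sall1 and Fcrls cases given above, beside 1.11% of all genes in the same 16 comparisons.

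Genes of the same pathways were read beside the 0% to 0.337% of all genes called per comparison. Of 33 other microglial identity genes, all tested in every comparison, 1 was called once: Lag3, an inhibitory receptor that these cells express, was 269 ± 34.4 CPM (SD, n = 4) in young and 489 ± 82.7 CPM (SD, n = 8) in old control hippocampus at 48 h (log2 0.87 ± 0.17 SE, adjusted p = 0.0260, edgeR). Of 14 transcription factors, among them Spi1 at a median of 123 CPM and Irf8 at 422, none was called. Of 13 ligands and partners, between 4 and 7 could be tested, and Tgfb2 was called lower in old than in young control hippocampus at 6 h (adjusted p = 0.0387, edgeR). It had 42.4, 35.3, 2.53 and 25.3 CPM in the 4 young libraries, the first and last of which are among the 6 with uneven low values, and 0 or 1 count in each of the 8 old ones. No member of the genes' own families was called.

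Most listed ligands of the receptors were near the floor in these sorted cells. Il34 and the fractalkine gene Cx3cl1 had a median of 0 CPM, as had Selp, the selectin that binds the Selplg product. Csf1 was low but had counts in 96 of 96 libraries, at a median of 19.3 CPM. Tyrobp, the signalling adaptor for Siglech, was at 907 CPM, and Khk, the enzyme that takes up fructose metabolism after Slc2a5, at 58.4 CPM. Per kilobase of exon, the members stood above their listed relatives. Sall3 had a median of 17.1 CPM per kb and Sall2 2.74, beside 72.4 for Sall1, and Sall4 was at 0. Cd33 had 70.6 and Siglece 25.7 CPM per kb, beside 373 for Siglech. Slc2a8 had 16.6 and Slc2a1 7.40 CPM per kb, beside 150.0 for Slc2a5, and Fcrl1 had 12.6 beside 633 for Fcrls. Among markers of other cells, the summed medians were highest for border-associated macrophages (699 CPM, nearly all Stab1), choroid plexus (242) and astrocytes (195, mostly Slc1a3). Neutrophil markers had a median of 3.24 CPM over 7 genes and reached 678 in 1 old surgery hemisphere library, and erythrocyte markers a median of 0 over 4. The choroid plexus markers reached 5720.3 CPM in 1 young control hippocampus library, mostly Ttr, and were higher in the hippocampus in 8 of 8 young controls.

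After each group's mean was taken off, the 9 genes varied together from library to library. All 36 pairs were positive over the 96 libraries, with a median r of 0.81. The closest were Cx3cr1 with Csf1r (0.93) and Tmem119 with Selplg (0.93), the latter the 2 neighbours on chromosome 5. The weakest was Sall1 with Slc2a5 (0.28). A single axis held 76.3% of the standardised variation. Siglech (r = 0.67 with the mean of the other 8) and Sall1 (0.45) followed it least, and the other 7 had 0.83 to 0.94.

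The shared variation was hardly seen between the 2 libraries of an animal. Between the hemisphere and hippocampus libraries of the 48 animals, r was -0.10 to 0.11 for 7 members, among them Tmem119 (0.01) and Csf1r (-0.07). For Sall1 it was 0.36 and for Siglech 0.34, the 2 genes that followed the common axis least. The axis had r = -0.60 with log2 depth outside the 15 largest models, 0.78 with the share of those models and 0.11 with the mitochondrial share. These correlations share library, depth and scaling, and they are descriptions.

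**Figure D5:**
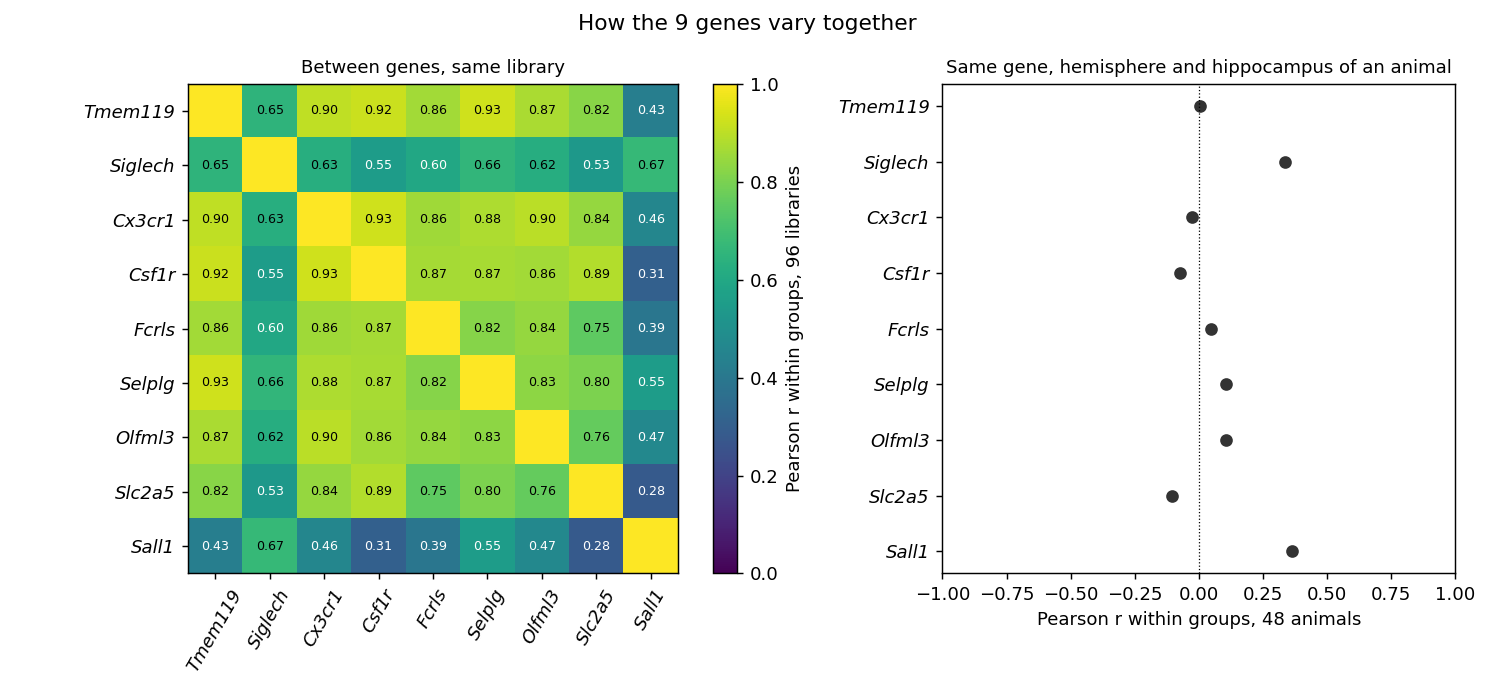
Left, Pearson r between each pair of genes within groups over 96 libraries (colour scale 0 to 1). Right, r of each gene between the hemisphere and hippocampus libraries of the same 48 animals, where Sall1 (0.36) and Siglech (0.34) stand to the right of the other 7.

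The genes most like each member by the same within-group r, among 8446 genes with a mean log2 CPM of at least 4, were shared by many of the 9. Unc93b1, which carries endosomal Toll-like receptors, was among the 3 closest for Cx3cr1 (0.91), Fcrls (0.88), Olfml3 (0.88), Tmem119, Csf1r and Selplg. The purinergic receptor P2ry13 was among them for Cx3cr1 (0.90), Fcrls (0.87), Olfml3 and Slc2a5 (0.86). The other 2 members had other neighbours: Pld4 (0.72), Cd37 and Tmem86a for Siglech, and Susd3 (0.62), Cyth4 and Marcks for Sall1.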

How the data were processed

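RNA of sorted microglia from 48 wild-type mice was measured in 96 libraries, and 4 tables, 1 for each region and time, hold the values. The values are whole-number estimated counts per Ensembl gene model as deposited by the authors. Per the submitters' processing notes the build was mm10, with R 4.2.1 and DESeq2 1.36.0. The sources used here name no aligner, counter or annotation release. Of 54532 gene IDs, 54495 matched GENCODE annotation of mm10, and the other 37 held 0.00169% of counts.

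Counts were tested as deposited with edgeR 4.0.16 (R 4.3.3), by the quasi-likelihood F-test with TMM scaling, a filter at a minimum count of 10 and Benjamini-Hochberg adjustment at 0.05 over all genes tested. For each age and treatment, the 2 regions were tested together over the animals of both times, with the animal as a block. A sort number in the library names ties 1 hemisphere and 1 hippocampus library to each animal. Groups of control and surgery animals were not paired. Intervals are normal 95% intervals. For the levels shown, CPM leave out 15 models that each held over 0.5% of counts. Alternatives were DESeq2 1.42.0, no filter, 2 other scalings, depth as a covariate, blocks, single times, and fits without single libraries. Further ones left out the uneven libraries, or kept only the old animals with sort numbers among those of the young. The model fits were tested on simulated data. The members, the gene lists and the tests were chosen with earlier results of these data known. Named genes are the 9 members, the 3 most like each of them within groups (not all are reported here), and the listed genes that were called or are partners or relatives. The labels do not say how animals were assigned. In the surgery and age comparisons, p-values set a difference against the variation between these animals. In the region fits they set it against the variation of the within-animal difference, with 1 library per region.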

Additional observations from a re-analysis of the deposited data

Results flagged for a closer look

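In 8 of 144 sets of 1 gene in 1 group of 4 to 9 libraries, 1 library stood far from the others by Dixon's ratio at the 95% level, where chance gives 7.2. In the young control hippocampus at 48 h it was replicate 3 for both Csf1r, at 9565 CPM with the nearest library at 4452, and Olfml3, at 2348 CPM with the nearest at 1628. Csf1r in the young hippocampus 6 h after surgery was 6948 CPM in replicate 1. Sall1 in the young hippocampus 48 h after surgery was 353 CPM in replicate 4, below the other 3 libraries.

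In old animals, Fcrls was 2189 CPM in hemisphere replicate 2 at 6 h after surgery, with the nearest library at 1283. Fcrls was 1154 CPM in control hippocampus replicate 5 at 48 h, the 1 old control in which the hippocampus was not the higher region. At 48 h after surgery, the hippocampus held Siglech at 1640.3 CPM in replicate 5 and Slc2a5 at 499 CPM in replicate 3.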

How the results depend on the processing

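In 637 alternative fits over 28 comparisons, the number of members called differed from the main one in 11, and no called member value changed sign. In old controls, hippocampus against hemisphere, the 1 call became 4 with DESeq2 (51 genes called in all, against 11 with edgeR), 3 without the filter (135 genes), 0 within 6 h animals and 0 within 48 h animals (0 genes each). Leaving out 1 animal gave 0 to 1. In old animals after surgery 0 became 1 without the filter (Slc2a5, log2 0.50, adjusted p = 0.0428, edgeR; 133 genes called). The cause was not tested. Over its other alternatives the Fcrls difference was 0.39 to 0.58, with adjusted p from 2.3e-05 to 0.610 (DESeq2 and edgeR). Without the animal block it was 0.51 (adjusted p = 0.0416, edgeR).

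Of 5733 member values 499 that were not called changed sign, 80 of them under scaling without the 4 largest non-coding models and 30 of 153 without the 6 uneven libraries. That scaling moved the median of all genes by over 0.1 in 16 of 28 comparisons (-0.53 to 0.76), and directions of uncalled members hold only relative to that shift. In old controls 9 of 9 members stayed above the median of all genes under each scaling. Control and surgery animals share only a replicate number: of 4 to 8 pairs per set, 0 to 3 correlated over 0.1, and the replicate block changed 0 member counts in 24 fits. Precision was limited by the 4 to 9 animals a group and, for Sall1, by counts as low as 157 per library.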
